A study of Mus musculus with 65 samples.

Results

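Endothelial and vascular genes were followed through RNA sequencing of whole mouse retina, in mice whose microglia had been depleted, had returned, or had been challenged with lipopolysaccharide (LPS), a bacterial outer membrane component that provokes inflammation. The set held 33 genes listed by symbol, and each of the 33 matched a single Ensembl gene among the 50686 genes of the count table. The list was drawn up by function, with earlier results of these data known. It held 7 activation and adhesion genes, 7 barrier genes, the fenestration gene Plvap and 9 genes of the endothelial surface and its junctions. The others were 4 receptors for vascular growth factors, 3 endothelial transcription factors and 2 genes of mural cells, which wrap the capillaries. All 33 passed the detection filter, which asked for 1 count or more in at least 0.5 of the mice of any single group.

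Counts were analysed from 65 adult C57BL/6J mice in 16 groups. The 5 CD mice ate the AIN-76A control diet, and the label of 1 of them carries 2M. PLX5622, an inhibitor of the receptor CSF1R that microglia need to survive, was given in the same diet for 2, 5, 7, 10, 14 or 21 days in the DEP groups (DEP2 to DEP21, 4 mice each and 3 in DEP5). In the REPOP groups the mice returned to the control diet after 14 days on PLX5622 and were taken 3, 5, 7, 10, 14, 21 or 60 days later (REPOP3 to REPOP60, 4 mice each and 6 in REPOP7). The labels of the REPOP60 mice carry 2M. Systemic LPS was given to 3 mice on the control diet (LPSCD) and to 4 mice labelled with PLX5622 and LPS, which the study calls repopulated (LPSREPOP). The labels do not state the day of repopulation at which the LPSREPOP mice were challenged, so REPOP60 served as their unchallenged reference because its libraries carry the same title suffix, and not because it is a stated control. The time between LPS and harvest is not given in the sources used here, and no perfusion is described for the retinas that were sequenced.

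Total counts per library ran from 5106429 in mouse 1 of REPOP21 to 8760443, with a median of 7944665 and the next lowest at 7367693. At 3 counts, the limit that a count of 0 allows, a library could show 0.342 to 0.587 CPM (counts scaled to a common library size), and this limit covers counting error only. Library titles end in RE for 39 mice and in re for 26, and the meaning of the suffix is not given. On the first principal component of 12346 genes, which held 55.8% of the variance, every re library scored above every RE library. Mouse 3 of LPSCD stood at the end of both the first component, at 36.0, and the second, at 16.4, above the other 64 mice, and had the lowest sums of glial markers (1653 CPM, the next mouse 2043) and of mural genes outside the 33 (560.1 CPM, the next 619). The calls in LPSCD are also given without it. All LPSCD, LPSREPOP and REPOP60 libraries are re, while CD holds 3 RE and 2 re libraries, so the suffix was a term of the model behind every test.

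Retinal capillaries form the inner blood-retina barrier, in which endothelial cells are sealed by tight junctions, carry nutrients across by transporters, return drugs to the blood by efflux pumps and are covered by pericytes. In inflammation, endothelium is known to display selectins and immunoglobulin-like adhesion molecules that slow and hold passing leukocytes, and to release von Willebrand factor from storage granules. LPS is sensed through a receptor that activates the transcription factor NF-kB, and cytokines that follow act through STAT factors. Several barrier genes are not private to vessels in the retina: Slc2a1 and Tjp1 are also made by pigment epithelium, glia or photoreceptors, and Kdr by some retinal neurons.

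The promoters of activation genes are shown because this group carried the largest changes under LPS. They are the 250 bases upstream of the RefSeq start (build GRCm38.p6, read 5′ to 3′ on the strand of the gene), for those activation genes that rose in LPSCD and have an entry in the promoter table: Icam1 (chr9:21015690-21015939, plus strand), Ly6c1 (chr15:75048838-75049087, minus strand) and Selp (chr1:164115014-164115263, plus strand). Vwf and Ly6a also rose. Capitals mark matches to the motifs described after the sequences.
Icam1: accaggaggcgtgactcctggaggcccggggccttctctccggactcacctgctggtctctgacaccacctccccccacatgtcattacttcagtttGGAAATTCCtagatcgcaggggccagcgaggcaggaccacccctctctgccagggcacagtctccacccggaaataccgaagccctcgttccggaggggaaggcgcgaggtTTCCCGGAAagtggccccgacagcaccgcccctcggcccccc
Ly6c1: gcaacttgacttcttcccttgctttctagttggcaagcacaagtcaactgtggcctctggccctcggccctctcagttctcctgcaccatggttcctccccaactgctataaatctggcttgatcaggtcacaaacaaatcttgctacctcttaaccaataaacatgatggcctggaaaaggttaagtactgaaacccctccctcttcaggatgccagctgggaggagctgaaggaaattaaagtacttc
Selp: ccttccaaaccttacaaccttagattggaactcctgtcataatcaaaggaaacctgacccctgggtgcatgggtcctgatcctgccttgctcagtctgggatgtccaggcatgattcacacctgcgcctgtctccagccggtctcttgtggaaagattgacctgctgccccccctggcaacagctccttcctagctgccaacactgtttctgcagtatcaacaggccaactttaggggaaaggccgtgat
Both strands were searched for 3 motifs: the NF-kB consensus, a palindromic kB form spelled GGAANTTCC, and a STAT form spelled TTCNNNGAA. They were settled on with the Icam1 sequence in view, so its matches are a description. In Icam1 the palindromic kB form lay from base -153 to -145 and the STAT form from -42 to -34, counted back from the start, and the 2 did not overlap. Ly6c1 and Selp held none of the 3 motifs in this window. Of 32851 promoters of the same length, 3.9% held the NF-kB consensus, 0.813% the palindromic kB form and 7.02% the STAT form.

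Levels per transcript length are best compared as FPKM (read density along the transcript, scaled to library size). In the 5 CD mice the highest mean FPKM of the set was that of Slc2a1, the glucose transporter, at 65.4, followed by Tjp1, the tight junction scaffold ZO-1, at 36.3 and Kdr, the VEGF receptor VEGFR2, at 30.9. Flt1, the decoy-like receptor VEGFR1, averaged 17.1 FPKM and Rgs5, a pericyte regulator of G protein signalling, 14.6 FPKM. Cdh5, the vascular cadherin that is a defining marker of endothelium, averaged 1.54 FPKM, so that Slc2a1 stood 42.5 times and Tjp1 23.6 times above it. The defining endothelial genes Pecam1, Cdh5, Cldn5, Tie1 and Esam had counts in all 5 CD mice. Down the order of means, the ranges of neighbouring genes overlapped in all but 5 of 32 pairs, those between Slc2a1, Tjp1, Kdr and Flt1 and those on either side of Esam. At the low end Icam1 averaged 0.0724 FPKM, and the selectin genes Selp and Sele were listed at 0 in all 5 mice.

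**Figure D1:**
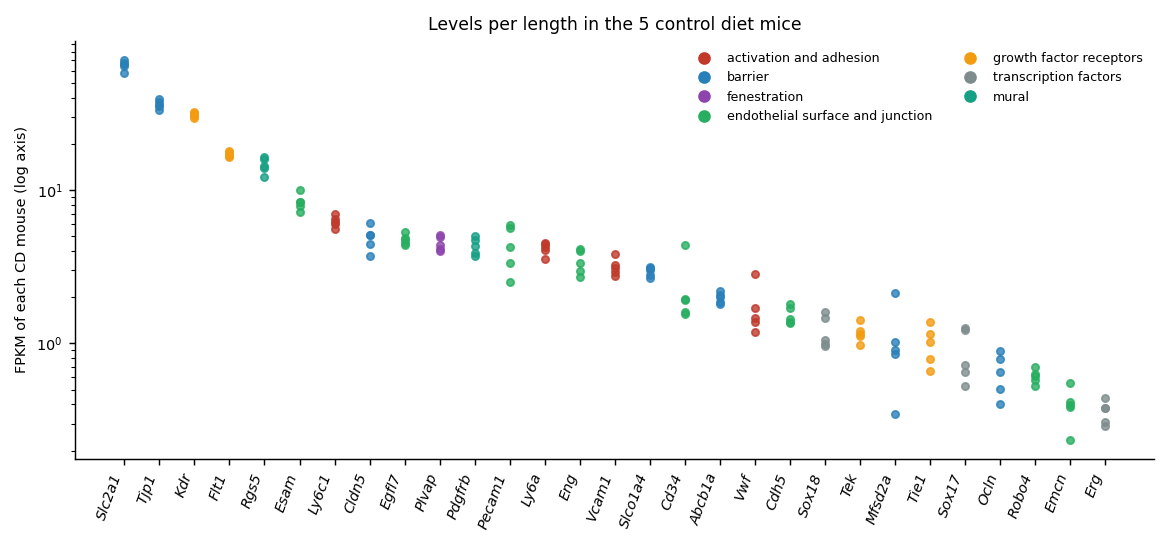
FPKM of each gene in the 5 CD mice (log axis, one point per mouse), ordered by mean and coloured by role; only genes above 0 in all 5 mice are drawn. Slc2a1, Tjp1 and Kdr stand apart at the top, at means of 65.4, 36.3 and 30.9, while Cdh5 lies at 1.54.

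The first question was what systemic LPS does to these genes in retinas with resident microglia. In LPSCD, 20 of the 33 genes rose and none fell against CD, where 3.59% of all 28211 genes tested rose and 2.84% fell. A gene was called when its Benjamini-Hochberg adjusted p (false discovery rate, FDR) in edgeR's quasi-likelihood test was under 0.05. By this test the adhesion receptor Icam1 and the granule protein gene Vwf rose most among genes with counts in every group. Their log2 fold changes were 2.98 and 2.51. Over 12 other fits Icam1 ran from 1.21 to 3.21 and Vwf from 1.75 to 2.65. The tight junction gene Cldn5 more than doubled, with a log2 fold change of 1.41, while its partners Ocln and Tjp1 were at -0.015 and -0.022. The median log2 fold change was 0.82 over the 33 genes, 0.79 without Sele and Selp, and 0.00 over all genes tested. In whole retina, more endothelial cells and more of these transcripts per cell cannot be told apart.

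With the study's own stricter rule, an FDR under 0.01 and a log2 fold change above 1, 11 of the 33 genes rose, against 0.695% of all genes. Every LPSCD mouse lay above every CD mouse for 21 of the 33, against 5.47% of all genes. Of the 20 genes called, 18 were separated in that way, the exceptions being Plvap and Emcn. All but Emcn, or 19, had every LPSCD mouse above both re mice of CD, for which no share over all genes is given. The 20 were called on these same mice, so their separation describes the calls and adds no support to them. Here and below, the share of all genes called is given for the fit of all mice only. A fit of the re mice alone called 16 genes, with Emcn, Erg, Plvap, Sox18 and Tie1 lost and Slc2a1 gained. A fit of only the CD and LPSCD mice with the suffix called 2, Vwf and Cldn5. Mouse 3 of LPSCD was the highest of its group in 13 of the 20 genes, and without it 13 genes were called, with Cdh5, Emcn, Icam2, Plvap, Robo4, Sox18 and Tie1 lost. The calls of Cdh5, Icam2, Plvap and Sox18 were each lost without other single mice too, and those of Erg and Flt1 without LPSCD mouse 2, while the other genes kept theirs. Without LPSCD mouse 1, Slc2a1, Pdgfrb and Sele were called as higher and Kdr as lower.

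Of the 7 activation and adhesion genes, 5 rose, with a list median of 2.51 on the log2 scale, or 1.96 without Sele and Selp, whose fitted values rest on counts near 0. Values are CPM scaled to effective library sizes, given in the order of the mouse numbers, with the 2M mouse last in CD. Vwf (chr6:125546774-125686679, GRCm38) stood at 8.69, 7.95, 11.3, 7.64 and 16.6 CPM in CD and at 45.6, 79.1 and 69.6 CPM in LPSCD. The lowest LPSCD mouse was thus above the highest control, the 2M mouse, by more than the whole range of CD. Its means were 10.4 ± 3.75 (SD, n = 5) and 64.7 ± 17.3 (SD, n = 3), and edgeR gave a log2 fold change of 2.51 ± 0.19 (SE) with an FDR of 2.51e-15.

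Icam1 (chr9:21015985-21028817), whose product binds leukocyte integrins and whose promoter is printed above, stood at 0.519, 0.119, 0.90, 0.823 and 1.2 CPM in CD. Its LPSCD values were 1.82, 5.75 and 7.02 CPM. The groups did not overlap, and mouse 1 of LPSCD lay much nearer to the controls than mice 2 and 3. The log2 fold change was 2.98 ± 0.45 (SE), with an edgeR FDR of 3.41e-06. An annotated antisense gene, Gm47079, overlaps Icam1 and took 416 counts over all mice against 553 for Icam1, and whether counting used the strand is not stated.

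Ly6a and Ly6c1 encode small lipid-anchored surface proteins that mark mouse endothelium and some leukocytes. Ly6a (Sca-1) stood at 2.98, 3.2, 2.57, 2.35 and 2.66 CPM in CD and at 4.69, 8.18 and 14.2 CPM in LPSCD. For Ly6c1 the CD values were 2.98, 3.44, 2.06, 2.7 and 2.93 CPM and the LPSCD values 5.99, 11 and 14.3 CPM. Neither gene overlapped between the groups, and in both, as for Icam1, mouse 1 of LPSCD was the lowest and mouse 3 the highest of its group. Their log2 fold changes were 1.73 ± 0.30 (SE) and 1.96 ± 0.30 (SE), with edgeR FDRs of 4.23e-05 and 5.50e-06. Reads of Ly6c1 and of its near-identical copy Ly6c2 may be shared, so the split between them is uncertain.

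The selectins, which catch rolling leukocytes, were close to the detection limit. Selp had 0 counts in all 5 CD libraries and 3, 2 and 15 counts in those of LPSCD, or 0.391, 0.256 and 1.88 CPM. Set against 3 counts in each CD library, the LPSCD mean was at least 2.24-fold higher, and the FDR of the edgeR test was 0.00053. Of the 10 other fits that tested Selp 6 called it, and the limma fits and that of the 2 groups with the suffix did not. Most of the LPSCD counts came from mouse 3, and the bound on the fold rests on it. Mouse 1, at 0.391 CPM, lay just above the CD limit of 0.376 CPM and mouse 2, at 0.256 CPM, below it. Sele had 1 count in CD, in mouse 2, and 0, 1 and 4 counts in LPSCD, so both groups averaged under 3 counts per library and no fold change is given. Vcam1, which holds leukocytes through the integrin VLA-4, stood at 10.9, 12.9, 14.4, 11.5 and 14 CPM in CD and at 14.6, 14.4 and 13.5 CPM in LPSCD. The groups overlapped, and its log2 fold change of 0.30 ± 0.13 (SE) had an edgeR FDR of 0.186.

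**Figure D2:**
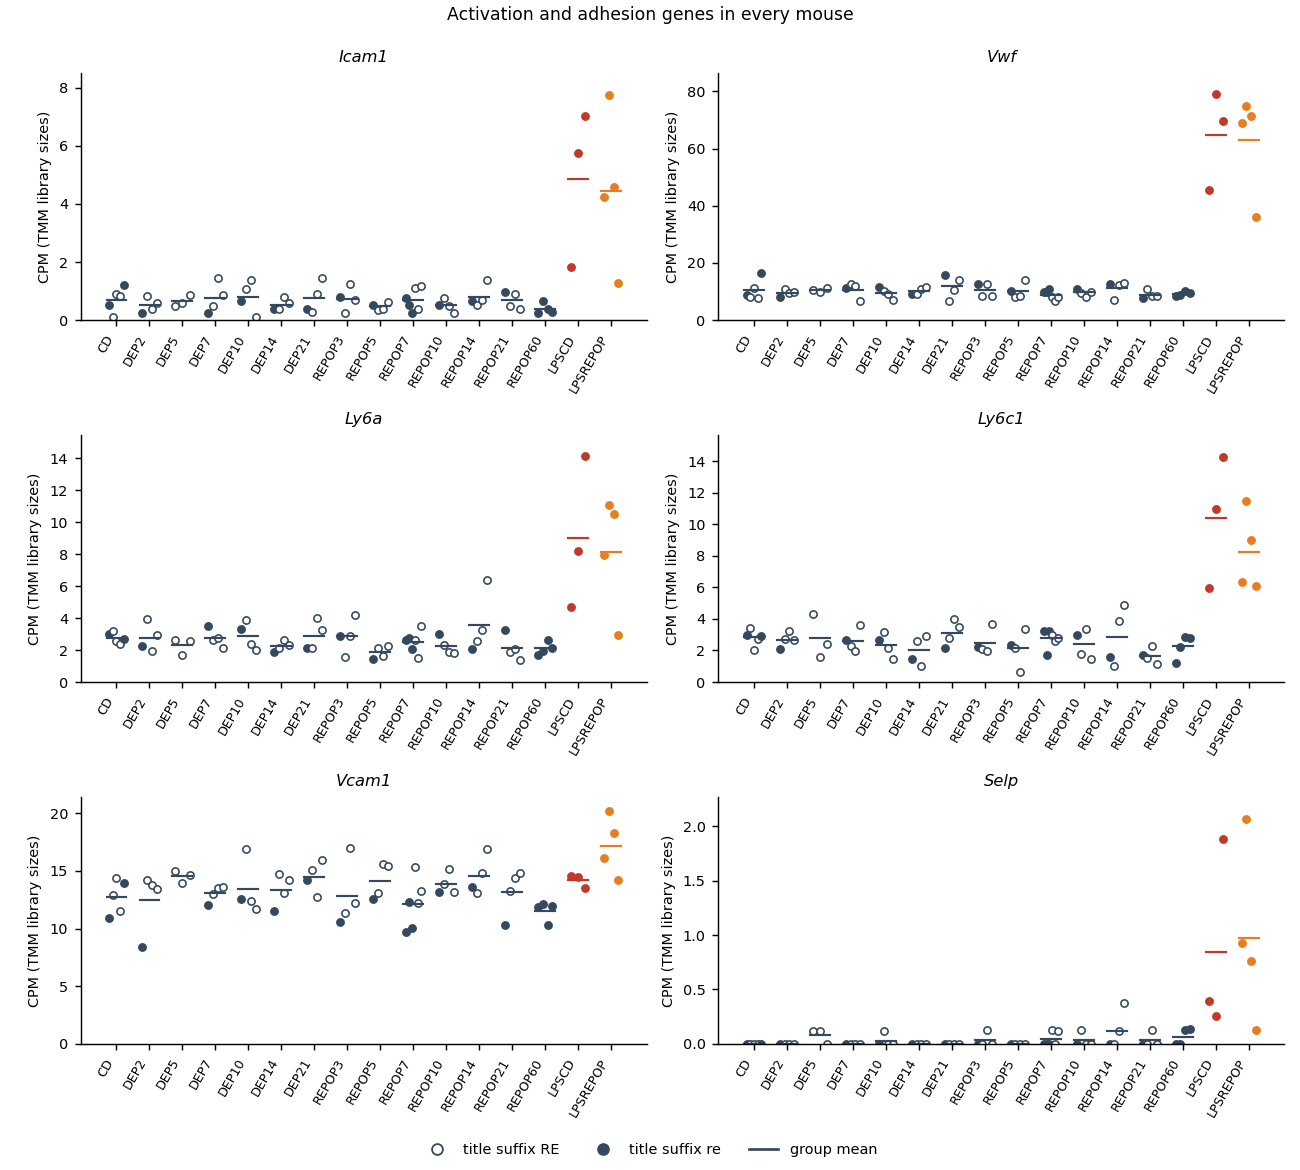
CPM of 6 activation and adhesion genes in every mouse of the 16 groups (open points for title suffix RE, filled for re, lines for group means). Vwf and Ly6c1 lie above all 58 unchallenged mice in all 7 LPS mice, Icam1 in 6 and Ly6a in 5, while Vcam1 overlaps the unchallenged range except in 2 mice.

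Of the 7 barrier genes 2 rose, and the list median was 0.32. Cldn5 (chr16:18776847-18778262), the main claudin of endothelial tight junctions, stood at 5.71, 7.83, 8.35, 7.76 and 9.45 CPM in CD and at 20.1, 20.7 and 25.3 CPM in LPSCD. The lowest LPSCD mouse had more than double the CPM of the highest control. Cldn5 gave a log2 fold change of 1.41 ± 0.17 (SE) and an edgeR FDR of 3.56e-08. Slco1a4, an organic anion transporter of brain and retinal capillaries, stood at 9.47, 10.7, 12.1, 11.6 and 13.3 CPM in CD and at 15.8, 22.5 and 16.3 CPM in LPSCD. Here too the groups were apart, by a narrower gap, with a log2 fold change of 0.79 ± 0.16 (SE) and an edgeR FDR of 0.000471. Its call was kept in 8 of 12 other fits and lost in those of limma and of the 2 groups with the suffix.

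The other 5 barrier genes did not pass the test. Slc2a1 stood at 179.8, 167, 148, 161 and 191 CPM in CD and at 232, 273 and 259.9 CPM in LPSCD. Although these groups did not overlap, its level is higher in re libraries in general, by 0.36 on the log2 scale, and with the suffix in the model its log2 fold change was 0.38 ± 0.13 (SE) with an edgeR FDR of 0.0643. Every LPSCD mouse also lay above both re mice of CD, and a fit of the re mice alone called the gene, with a log2 fold change of 0.46. Of 12 other fits 8 called it, DESeq2 and limma included. Abcb1a, the efflux pump P-glycoprotein, stood at 7.66, 12.7, 12.1, 9.99 and 11.7 CPM in CD and at 10.8, 14.4 and 10.03 CPM in LPSCD, and the groups overlapped (log2 fold change 0.32 ± 0.15 (SE)). Tjp1 stood at 205, 199, 231, 219 and 191 CPM in CD and at 196, 188 and 174 CPM in LPSCD. The 95% interval of its log2 fold change, -0.20 to 0.16, leaves room for small changes only. Ocln, a tight junction membrane protein gene, stood at 2.72, 3.8, 3.08, 4.7 and 3.19 CPM in CD and at 2.08, 3.96 and 3.13 CPM in LPSCD, with an interval of -0.55 to 0.52. For Mfsd2a, a lipid transporter that holds back vesicle transport across the barrier, the values were 1.82, 1.78, 1.03, 1.18 and 2.0 CPM in CD and 2.08, 1.92 and 1.25 CPM in LPSCD, with an interval of -0.76 to 0.53. Both genes lie at a few CPM, and their intervals are wide.

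Plvap forms the diaphragms of fenestrae and is lost from endothelium as a barrier matures. It stood at 8.56, 9.02, 7.07, 10.6 and 8.91 CPM in CD and at 13, 10.5 and 15.3 CPM in LPSCD. Mouse 2 of LPSCD lay within the range of CD, and the log2 fold change of 0.48 ± 0.15 (SE) was called at an edgeR FDR of 0.0413. That call was lost without mouse 1, 3 or 2M of CD and without mouse 1 or 3 of LPSCD. Gtpbp3, on the opposite strand, overlaps Plvap and had 11236 counts over all mice against 4790.

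**Figure D3:**
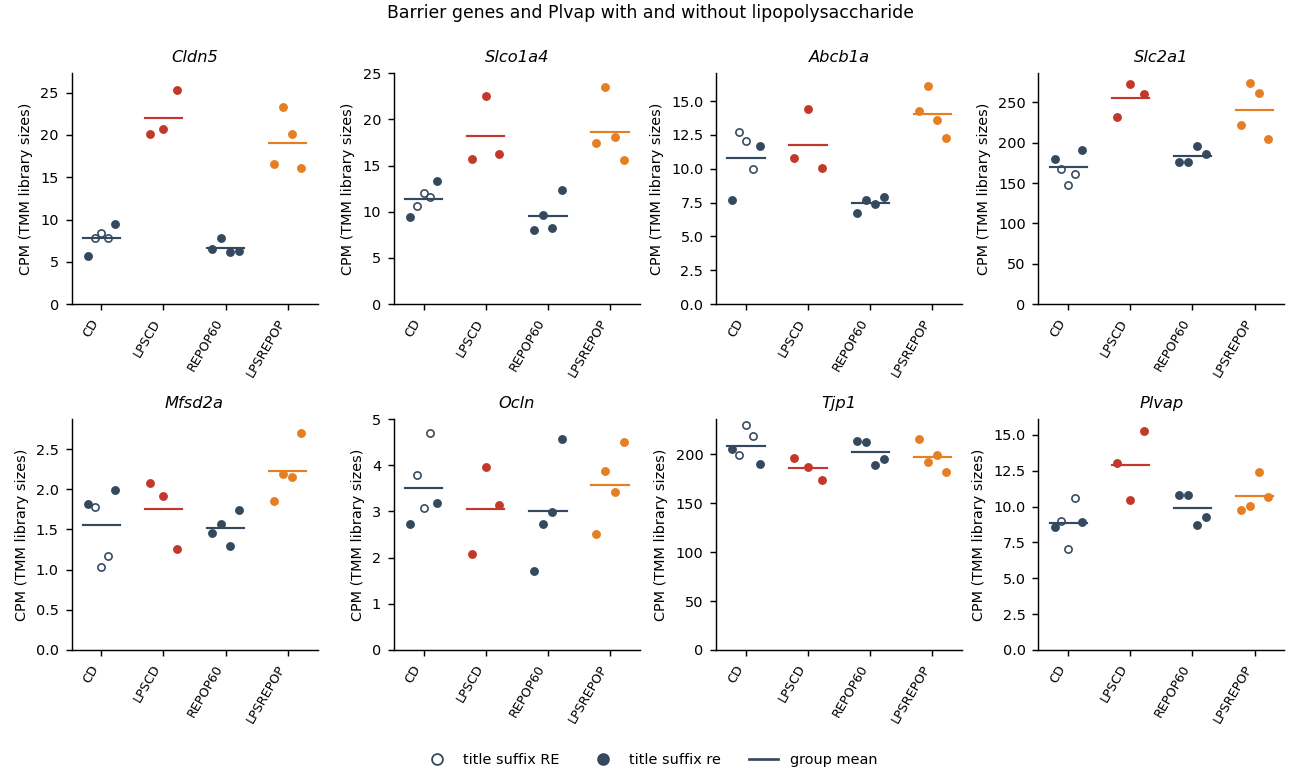
CPM of the 7 barrier genes and of Plvap in every mouse of CD, LPSCD, REPOP60 and LPSREPOP (open points for title suffix RE, filled for re, lines for group means; axes start at 0). Cldn5 means are 7.82, 22, 6.68 and 19 in that order, while Tjp1 stays between 174 and 231 in every mouse.

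Of the 9 surface and junction genes 8 rose, with a list median of 1.03. Pecam1, the platelet and endothelial adhesion molecule, stood at 11.2, 10.3, 8.74, 11 and 12.5 CPM in CD and at 16.4, 25.2 and 27.4 CPM in LPSCD, with no overlap (log2 fold change 1.03 ± 0.14 (SE), edgeR FDR 2.33e-07). Eng, a coreceptor for TGF-beta and BMP ligands, stood at 9.99, 7.24, 6.94, 10.3 and 9.58 CPM in CD and at 18.5, 17.4 and 34.5 CPM in LPSCD. Mouse 3 was nearly at double the other LPSCD mice here, but the groups were apart in any case (log2 fold change 1.23 ± 0.18 (SE), edgeR FDR 8.37e-07). Fpgs overlaps Eng on the opposite strand, with 5379 counts against 5189. Egfl7, a secreted endothelial factor, stood at 3.24, 3.92, 5.01, 4.7 and 4.52 CPM in CD and at 7.03, 9.2 and 9.02 CPM in LPSCD. Its groups were also apart, with a log2 fold change of 0.97 ± 0.18 (SE) and an edgeR FDR of 0.000125.

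Cd34, a sialomucin of capillary endothelium, stood at 4.41, 5.22, 7.32, 5.88 and 5.19 CPM in CD and at 8.72, 8.05 and 10.7 CPM in LPSCD (log2 fold change 0.88 ± 0.18 (SE), edgeR FDR 0.000623). Robo4, a guidance receptor that steadies vessels, stood at 2.21, 3.32, 1.8, 2.82 and 3.46 CPM in CD and at 5.47, 5.24 and 7.64 CPM in LPSCD (log2 fold change 1.10 ± 0.24 (SE), edgeR FDR 0.00175). Both genes were apart between the groups. Icam2, an adhesion molecule that endothelium carries at rest, stood at 0.389, 0.831, 0.257, 0.353 and 0.532 CPM in CD and at 1.3, 2.17 and 1.75 CPM in LPSCD. It was also apart, from a base near the counting limit (log2 fold change 1.69 ± 0.48 (SE), edgeR FDR 0.0173). Cdh5 rose least of the genes called in this list, from 5.84, 6.88, 7.71, 7.76 and 7.05 CPM in CD to 12.1, 9.84 and 11 CPM in LPSCD (log2 fold change 0.57 ± 0.17 (SE), edgeR FDR 0.0231). For Emcn, the mucin endomucin, the CD values were 1.56, 1.54, 2.18, 2.12 and 2.0 CPM and the LPSCD values 1.69, 2.3 and 6.02 CPM. Mouse 1 lay within the range of CD and mouse 3 far above it (log2 fold change 1.18 ± 0.29 (SE), edgeR FDR 0.00598). Without mouse 3 the log2 fold change of Emcn was 0.43 with an edgeR FDR of 0.693, and 4 of 12 other fits called it. Esam, a junctional adhesion molecule, was the gene of the list that was not called, with a log2 fold change of 0.27 ± 0.11 (SE).

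Among the growth factor receptors 2 of 4 rose. Tie1, the partner of the angiopoietin receptor, stood at 6.49, 5.46, 4.5, 3.53 and 5.85 CPM in CD and at 9.12, 7.67 and 11.9 CPM in LPSCD, apart in every mouse (log2 fold change 0.82 ± 0.18 (SE), edgeR FDR 0.00118). Flt1 stood at 122, 128, 145, 126 and 130.2 CPM in CD and at 146, 179.8 and 150.4 CPM in LPSCD. Its groups were apart by a small step, and the log2 fold change was 0.38 ± 0.09 (SE) with an edgeR FDR of 0.00386. Tek, the angiopoietin receptor itself, was at 0.18 ± 0.17 (SE). Kdr was the only member of this list below 0, at -0.26 ± 0.11 (SE) with an edgeR FDR of 0.183, and its LPSCD values of 225, 173 and 131 CPM lay from above to well below the CD range.

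Of the 3 transcription factors, which set endothelial identity, 2 rose. Erg stood at 1.82, 1.78, 1.93, 1.41 and 1.6 CPM in CD and at 3.65, 4.47 and 2.63 CPM in LPSCD (log2 fold change 1.03 ± 0.27 (SE), edgeR FDR 0.00815). Sox18 stood at 3.11, 1.66, 1.29, 1.29 and 2.66 CPM in CD and at 3.78, 5.62 and 6.52 CPM in LPSCD (log2 fold change 0.92 ± 0.26 (SE), edgeR FDR 0.0178). Both were apart from CD, although for Sox18 the 2 re controls were the highest of CD. Sox17 stood at 4.28, 1.66, 1.41, 3.17 and 2.79 CPM in CD and at 4.3, 3.71 and 4.89 CPM in LPSCD, where the groups overlapped and the log2 fold change was 0.48 ± 0.26 (SE). Neither mural gene passed the test. Pdgfrb, the receptor by which endothelium recruits pericytes, was at 0.27 ± 0.11 (SE) and Rgs5 at 0.11 ± 0.096 (SE).

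The second question was whether retinas with repopulated microglia show the same genes under LPS. In LPSREPOP, 20 of the 33 genes rose and none fell against REPOP60, where 1.08% of all genes rose and 0.397% fell. Of these, 16 were also called in LPSCD, out of 20 in each comparison: Vwf, Icam1, Ly6a, Ly6c1, Selp, Cldn5, Slco1a4, Pecam1, Cdh5, Eng, Cd34, Emcn, Egfl7, Flt1, Tie1 and Sox18. Abcb1a, Rgs5, Sox17 and Vcam1 were called in LPSREPOP and not in LPSCD, and Erg, Icam2, Plvap and Robo4 in LPSCD and not in LPSREPOP. This split depends on the fit: limma on log2 FPKM called Abcb1a and Vcam1 in LPSCD as well, and Erg and Robo4 in LPSREPOP, where 6 of 12 other fits also called Icam2. The same limma fits did not call Emcn, Selp and Slco1a4 in LPSCD or Pecam1 in LPSREPOP. Of those 12, none called Rgs5 or Sox17 in LPSCD or Plvap in LPSREPOP. Emcn, called in both, kept its call in LPSCD in only 4 of the 12. The remaining 9, Esam, Kdr, Mfsd2a, Ocln, Pdgfrb, Sele, Slc2a1, Tek and Tjp1, were called in neither by the edgeR fit of all mice. The median log2 fold change over the 33 was 0.91, or 0.89 without Sele and Selp.

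By the study's stricter rule 9 of the 33 rose, against 0.319% of all genes. Every LPSREPOP mouse lay above every REPOP60 mouse for 24 of the 33, against 3.48% of all genes. Among the 20 genes called only Selp was not separated in this way. These 20 were called on the same mice, so their separation describes the calls and adds no support to them. Both groups are re, so no suffix difference enters this comparison. Mouse 4 of LPSREPOP was the lowest of its group in 16 of the 20 genes and mouse 2 the highest in 13. Leaving out 1 mouse at a time, 15 to 22 genes were called, and the lowest number came without LPSREPOP mouse 2. Emcn, Selp, Sox17 and Flt1 each lost their call without several single mice, and Pecam1 without LPSREPOP mouse 2.

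**Figure D4:**
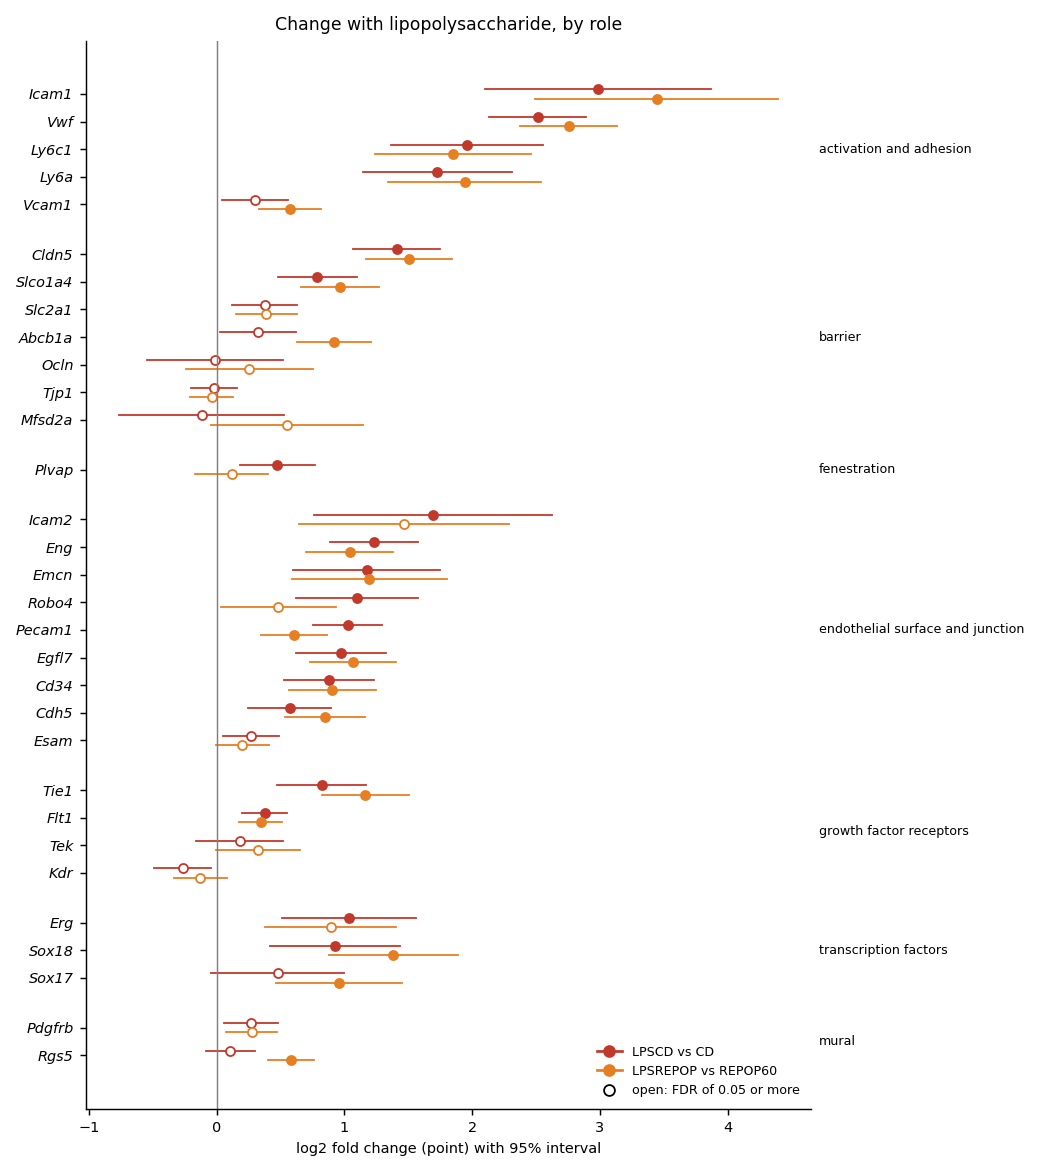
Log2 fold changes with 95% intervals for 31 genes in LPSCD against CD and in LPSREPOP against REPOP60, grouped by role (filled points for an FDR under 0.05; Selp and Sele are left out because their counts are near 0). Icam1 and Vwf lie farthest to the right in both comparisons, while Tjp1 lies near 0 and Kdr below it.

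In the activation list 6 of 7 rose, with a median of 1.94, with or without Sele and Selp. Vwf stood at 8.59, 8.86, 10.1 and 9.65 CPM in REPOP60 and at 69.1, 74.9, 71.5 and 36.1 CPM in LPSREPOP. Mouse 4 was well below the other challenged mice and still above every reference mouse (log2 fold change 2.75 ± 0.20 (SE), edgeR FDR 3.20e-17). Icam1 stood at 0.264, 0.651, 0.39 and 0.268 CPM in REPOP60 and at 4.23, 7.73, 4.57 and 1.29 CPM in LPSREPOP (log2 fold change 3.45 ± 0.49 (SE), edgeR FDR 1.44e-06). Over 12 other fits this fold change ran from 0.81 to 3.50. Ly6a stood at 1.72, 1.95, 2.6 and 2.15 CPM in REPOP60 and at 7.93, 11.1, 10.5 and 2.96 CPM in LPSREPOP (log2 fold change 1.94 ± 0.30 (SE), edgeR FDR 1.51e-05). In both, mouse 4 was the one closest to the reference. Ly6c1 stood at 1.19, 2.21, 2.86 and 2.82 CPM in REPOP60 and at 6.34, 11.5, 9.01 and 6.06 CPM in LPSREPOP (log2 fold change 1.85 ± 0.31 (SE), edgeR FDR 5.32e-05).

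Vcam1, not called in LPSCD, rose here. It stood at 11.9, 12.1, 10.3 and 11.9 CPM in REPOP60 and at 16.1, 20.2, 18.3 and 14.2 CPM in LPSREPOP, without overlap (log2 fold change 0.57 ± 0.12 (SE), edgeR FDR 0.00269). Only 2 of these 4 mice lay above the highest of the 58 unchallenged mice, at 17 CPM. Selp had 0, 0, 1 and 1 counts in REPOP60 and 7, 16, 6 and 1 counts in LPSREPOP, or 0.925, 2.06, 0.761 and 0.129 CPM. It was called at an edgeR FDR of 0.0251, and mouse 4 had no more counts than the reference. Sele had 0, 0, 0 and 2 counts in REPOP60 and 2, 2, 3 and 0 in LPSREPOP, too few for a fold change.

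Of the barrier genes 3 of 7 rose, with a median of 0.55. Cldn5 stood at 6.48, 7.81, 6.11 and 6.3 CPM in REPOP60 and at 16.5, 23.3, 20.1 and 16.1 CPM in LPSREPOP (log2 fold change 1.51 ± 0.17 (SE), edgeR FDR 6.19e-09). Slco1a4 stood at 8.06, 9.64, 8.19 and 12.3 CPM in REPOP60 and at 17.4, 23.5, 18.1 and 15.6 CPM in LPSREPOP (log2 fold change 0.97 ± 0.15 (SE), edgeR FDR 2.16e-05). The groups were apart for both transcripts. The efflux pump gene Abcb1a stood at 6.74, 7.68, 7.41 and 7.91 CPM in REPOP60 and at 14.3, 16.1, 13.6 and 12.2 CPM in LPSREPOP (log2 fold change 0.92 ± 0.15 (SE), edgeR FDR 2.25e-05). Its REPOP60 mean of 7.44 ± 0.506 (SD, n = 4) was the lowest of the 16 groups, below the CD mean of 10.8 ± 2.04 (SD, n = 5). The 2 re mice of CD averaged 9.68 CPM. All REPOP60 libraries are re, in which this gene is generally lower (-0.33 on the log2 scale). Against CD in place of REPOP60, its log2 fold change in LPSREPOP was 0.58 ± 0.14 (SE) with an edgeR FDR of 0.0116. This call against CD was lost without the suffix, in both fits of the 2 groups alone, in re mice only and with a replicate block. It was also lost without mouse 1 of CD or mouse 2 of LPSREPOP.

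Slc2a1 stood at 176, 176, 196 and 186 CPM in REPOP60 and at 222, 274, 261 and 205 CPM in LPSREPOP, apart but not called (log2 fold change 0.39 ± 0.12 (SE), edgeR FDR 0.0956). Of 12 other fits 7 called it, among them that of the re mice alone and the limma fits. Mfsd2a stood at 1.45, 1.56, 1.3 and 1.74 CPM in REPOP60 and at 1.85, 2.19, 2.16 and 2.71 CPM in LPSREPOP, with a log2 fold change of 0.55 ± 0.30 (SE). This group was apart as well, at a few CPM, and its FDR was 0.544 in edgeR. Ocln stood at 1.72, 2.73, 2.99 and 4.56 CPM in REPOP60 and at 2.51, 3.87, 3.43 and 4.51 CPM in LPSREPOP, and Tjp1 at 213, 213, 189 and 196 CPM in REPOP60 and at 215, 192, 199.5 and 182 CPM in LPSREPOP. Both overlapped, with intervals of -0.24 to 0.75 for Ocln and -0.21 to 0.13 for Tjp1 on the log2 scale. Plvap stood at 10.8, 10.8, 8.71 and 9.25 CPM in REPOP60 and at 9.78, 10.1, 12.4 and 10.7 CPM in LPSREPOP, and its log2 fold change was 0.12 ± 0.14 (SE).

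In the surface and junction list 6 of 9 rose, with a median of 0.91. Egfl7 stood at 3.17, 3.39, 5.98 and 4.42 CPM in REPOP60 and at 8.32, 9.8, 9.39 and 8.12 CPM in LPSREPOP (log2 fold change 1.07 ± 0.17 (SE), edgeR FDR 2.16e-05). Eng stood at 8.2, 8.33, 9.36 and 8.58 CPM in REPOP60 and at 16, 23.7, 15.5 and 15.9 CPM in LPSREPOP, where mouse 2 was alone above the other 3 (log2 fold change 1.04 ± 0.17 (SE), edgeR FDR 4.94e-05). Cdh5 stood at 6.08, 6.77, 5.59 and 7.11 CPM in REPOP60 and at 11.9, 12.8, 11.9 and 9.41 CPM in LPSREPOP (log2 fold change 0.85 ± 0.16 (SE), edgeR FDR 0.000466). These 3 genes lay above every one of the 58 unchallenged mice in all 7 LPS mice, as did Vwf, Ly6c1, Cldn5, Icam2, Tie1 and Sox18. The share of all genes separated in this way was not computed. These CPM are not adjusted for the suffix: all 7 LPS libraries are re, and the 58 include all 39 RE libraries. Sox18 and Eng are higher in re libraries, by 0.92 and 0.30 on the log2 scale. Cd34 stood at 4.23, 5.08, 5.85 and 4.29 CPM in REPOP60 and at 9.12, 9.93, 11.5 and 5.93 CPM in LPSREPOP (log2 fold change 0.91 ± 0.17 (SE), edgeR FDR 0.000611). Pecam1 stood at 11.9, 11.6, 13.5 and 13.3 CPM in REPOP60 and at 19.3, 23.2, 19.4 and 14.6 CPM in LPSREPOP (log2 fold change 0.60 ± 0.13 (SE), edgeR FDR 0.00347). Both were apart from REPOP60, with mouse 4 of LPSREPOP nearest to it. Emcn stood at 1.32, 1.17, 1.17 and 1.21 CPM in REPOP60 and at 1.85, 3.48, 3.68 and 2.19 CPM in LPSREPOP (log2 fold change 1.19 ± 0.31 (SE), edgeR FDR 0.0246). Icam2 stood at 0.793, 0.521, 0.65 and 0.804 CPM in REPOP60 and at 1.45, 2.06, 2.41 and 1.8 CPM in LPSREPOP, apart but with an edgeR FDR of 0.0538. Robo4 overlapped, at 2.38, 4.3, 2.47 and 5.36 CPM in REPOP60 and 5.68, 4.51, 6.09 and 4.0 CPM in LPSREPOP. Esam was at 0.20 ± 0.11 (SE) on the log2 scale and was not called.

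Tie1 stood at 3.44, 4.43, 4.42 and 4.69 CPM in REPOP60 and at 8.59, 10.1, 11.3 and 8.12 CPM in LPSREPOP (log2 fold change 1.16 ± 0.17 (SE), edgeR FDR 6.08e-06). Flt1 stood at 122, 127, 126 and 117 CPM in REPOP60 and at 169.9, 165, 157 and 133 CPM in LPSREPOP (log2 fold change 0.35 ± 0.085 (SE), edgeR FDR 0.0158). These receptors were the 2 of 4 that rose, as in LPSCD, while Tek was at 0.32 ± 0.17 (SE) and Kdr at -0.13 ± 0.11 (SE). Sox18 stood at 1.45, 2.21, 1.56 and 2.01 CPM in REPOP60 and at 4.36, 4.0, 6.98 and 3.61 CPM in LPSREPOP (log2 fold change 1.38 ± 0.26 (SE), edgeR FDR 0.000423). Sox17 stood at 2.25, 1.82, 3.51 and 2.15 CPM in REPOP60 and at 4.1, 4.64, 5.71 and 4.51 CPM in LPSREPOP (log2 fold change 0.96 ± 0.25 (SE), edgeR FDR 0.0284). Erg was apart as well, at 1.06, 2.08, 1.69 and 1.88 CPM in REPOP60 and 3.04, 3.61, 3.55 and 2.32 CPM in LPSREPOP, with an edgeR FDR of 0.0637.

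Of the mural genes Rgs5 rose and Pdgfrb, at 0.27 ± 0.10 (SE), did not pass. Rgs5 stood at 44.2, 41.3, 52.5 and 53.2 CPM in REPOP60 and at 78.2, 68.7, 69 and 70.4 CPM in LPSREPOP, without overlap (log2 fold change 0.58 ± 0.091 (SE), edgeR FDR 1.48e-05). REPOP60 was the group with the lowest Rgs5 mean, 47.8 ± 5.99 (SD, n = 4), and CD stood at 65.5 ± 8.22 (SD, n = 5). The 2 re mice of CD averaged 57.6 CPM. The LPSREPOP values were within the range of the 58 unchallenged mice, 41.3 to 89.9 CPM. The re libraries are lower in Rgs5 in general, by 0.42 on the log2 scale.

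Against CD, which the study used as the control of each group, 18 of the 33 genes rose in LPSREPOP and none fell, where 1.03% of all genes rose and 0.269% fell. All 6 activation genes other than Sele were among them, as were Cldn5, Slco1a4 and Abcb1a, and Vwf gave a log2 fold change of 2.47 ± 0.19 (SE). Vcam1 and Abcb1a lost their calls without the suffix, in both fits of the 2 groups alone, in re mice only and without LPSREPOP mouse 2. Selp lost its call in the fit of the 2 groups with the suffix, and Ly6c1 and Abcb1a lost theirs with a replicate block. A fit of CD and LPSREPOP mice alone with the suffix called 9, and without LPSREPOP mouse 2 the fit of all groups called 12. The CD mice serve in this comparison and in that of LPSCD, so the 2 are not independent.

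The direct comparison of LPSREPOP with LPSCD called 0 of the 33 genes by edgeR, against 1.32% of all genes. At an unadjusted p under 0.05 there were 4 of the 33, beside 3318 of all 28211 genes. Vcam1 and Rgs5 were higher in LPSREPOP and Eng and Pecam1 lower. DESeq2 called 0, and limma on log2 FPKM called 1, Rgs5. Rgs5 had a log2 difference of 0.28 ± 0.097 (SE) and an edgeR FDR of 0.159, with 70.8, 57.1 and 49.1 CPM in LPSCD against the LPSREPOP values given above. For Vwf the 95% interval of the log2 difference was -0.39 to 0.30, for Icam1 -0.80 to 0.54 and for Cldn5 -0.53 to 0.10. Differences inside these intervals could not be seen with 3 and 4 mice.

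The difference between the 2 effects of LPS, that in repopulated less that in control diet retinas, was tested in the same model. It called 0 of the 33 genes by edgeR, against 0.0284% of all genes. With an unadjusted p under 0.05 there were 4 of the 33, beside 2303 of all 28211 genes. Abcb1a and Rgs5 had the larger effect in repopulated retinas, by 0.59 ± 0.21 (SE) and 0.47 ± 0.13 (SE) on the log2 scale, with edgeR FDRs of 0.362 and 0.176. Pecam1 had the smaller effect there, by -0.42 ± 0.19 (SE) on that scale, and Selp was the fourth, with a fitted value that rests on its near-zero controls. DESeq2 called 0 and limma on log2 FPKM called 1, Rgs5. By edgeR with all mice, Vcam1, with a difference of 0.27 ± 0.18 (SE), and Plvap, with -0.36 ± 0.21 (SE), were not shown to differ between the LPS comparisons. Without mouse 1 of LPSCD, Pecam1 and Rgs5 were called both in this test and in the direct comparison.

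Summed over their genes, the activation list went from 29.5 ± 4.99 CPM in CD (SD, n = 5) to 104 ± 27.1 CPM in LPSCD (SD, n = 3), and from 25.8 ± 1.52 in REPOP60 to 102 ± 29.1 in LPSREPOP (SD, n = 4 each). Vcam1 and Vwf held most of that sum in CD, and Vwf alone did in LPSCD. The barrier list went from 413 ± 6.52 to 498 ± 23.5 CPM and from 414 ± 3.02 to 495 ± 42.4 CPM in the same groups. Tjp1 and Slc2a1, which are also made outside vessels, hold most of that second sum. Slc2a1, not called in the edgeR fit of all mice but called in most others, alone went from 169.5 ± 16.6 to 255 ± 21 CPM and from 184 ± 9.62 to 240.3 ± 32.5 CPM (SD, same n). The single mice of the activation sum were at 73.1, 119 and 121 CPM in LPSCD and 105, 128, 115 and 60.7 CPM in LPSREPOP. Mouse 1 of LPSCD and mouse 4 of LPSREPOP were the lowest, and no unchallenged mouse exceeded 43.4 CPM.

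Further vascular genes were read from 7 lists outside the 33, beside shares over all genes of 3.59% higher and 2.84% lower in LPSCD and 1.08% higher and 0.397% lower in LPSREPOP. Of 18 other endothelial genes, 7 rose and none fell in LPSCD. Those of smallest p were Cd93, a lectin-like surface receptor (1.5 ± 0.23 (SE) on the log2 scale, edgeR FDR 4.02e-06), Adgrl4, an adhesion G protein-coupled receptor (1.0 ± 0.18 (SE), FDR 0.000123), and Mmrn2, a matrix ligand of CD93 (1.43 ± 0.26 (SE), FDR 0.00013). In LPSREPOP against REPOP60, 6 rose and none fell, led by Adgrl4 (1.63 ± 0.19 (SE), FDR 6.19e-09), Ptprb, the endothelial phosphatase VE-PTP (0.85 ± 0.10 (SE), FDR 2.83e-08), and Cd93 (1.53 ± 0.23 (SE), FDR 5.79e-06). Of 17 other barrier genes, 3 rose and 1 fell in LPSCD: F11r, a junctional adhesion molecule (0.76 ± 0.21 (SE)), the amino acid transporter Slc7a5 (0.67 ± 0.20 (SE)) and the efflux pump Abcg2 (0.45 ± 0.15 (SE)) rose, and the matrix proteoglycan gene Spock2 fell (-0.21 ± 0.064 (SE)). Abcg2 is named after its values were seen. In LPSREPOP 2 of the 17 rose, Slc7a5 (0.85 ± 0.19 (SE)) and the pericyte transcription factor Foxf2 (1.13 ± 0.28 (SE)), and none fell. None of the 4 genes of the norrin pathway, which keeps the retinal barrier, was called in either comparison.

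Among 13 vascular ligands and coreceptors, Angptl4 rose in LPSCD (2.19 ± 0.62 (SE), edgeR FDR 0.0178) and Vegfa, the ligand of Kdr and Flt1, in LPSREPOP (0.36 ± 0.10 (SE), edgeR FDR 0.0485). Of 18 other activation genes, 6 rose in LPSCD, led by the cytokine signalling brake Socs3 (1.97 ± 0.27 (SE)), the transcription factor Cebpd (1.72 ± 0.29 (SE)) and the cholesterol hydroxylase gene Ch25h, which had 1 count over the 5 CD libraries and 38 over those of LPSCD. Tnfaip3, an inhibitor of NF-kB signalling named after its values were seen, was the gene of that list that fell (-0.27 ± 0.082 (SE)). In LPSREPOP 3 of the 18 rose, Lrg1 (3.94 ± 0.67 (SE)), Ch25h (2.81 ± 0.63 (SE)) and the TNF receptor gene Tnfrsf1a (0.81 ± 0.22 (SE)), and none fell. Of 10 haemostasis genes 3 rose in LPSCD, among them the annexins Anxa3 (1.49 ± 0.29 (SE)) and Anxa2 (0.82 ± 0.16 (SE)). The annexins rose in LPSREPOP too, by 1.25 and 0.58 on the log2 scale. Of 12 other mural genes, Vtn fell in LPSCD (-0.26 ± 0.082 (SE)) and none was called in LPSREPOP.

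Markers of other cells moved in the same libraries. Platelets also make von Willebrand factor and P-selectin. Of 5 platelet markers, the most abundant being Gp1bb, none was called in either comparison, and their sum was 12.7, 8.9, 7.97, 10.8 and 11 CPM in CD, 10.7, 14.3 and 15.5 CPM in LPSCD, 11.2, 13.2, 10.7 and 10.7 CPM in REPOP60 and 11.2, 15.1, 10.7 and 10.2 CPM in LPSREPOP. The groups overlapped in this sum, and the part of platelets in the Vwf and Selp values was not tested. The sum of 5 red blood cell markers, led by Hbb-bs, was 3.5, 7.24, 6.17, 11.8 and 5.59 CPM in CD and 1.04, 4.73 and 1.13 CPM in LPSCD, and 3.97, 4.95, 5.85 and 6.3 CPM in REPOP60 and 0.264, 1.42, 0.761 and 2.58 CPM in LPSREPOP. All 4 LPSREPOP mice lay below every REPOP60 mouse in this sum and 2 of the 3 LPSCD mice below every CD mouse, and Hbb-bs fell in LPSREPOP by 2.89 on the log2 scale (edgeR FDR 0.0155). Hbb-bs is also lower in re libraries in general (-1.40 on the log2 scale), which enters the comparison of the sums with CD.

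Some leukocyte markers were also higher in LPS mice. Of 7 monocyte and macrophage markers, 2 rose in each LPS comparison: Lyz2, the most abundant, by 2.33 and 2.51 on the log2 scale, and F13a1, named after its values were seen, whose fitted fold rests on near-zero controls. Their sum was 0.649, 0.593, 2.18, 1.41 and 0.931 CPM in CD, 2.86, 4.34 and 10.8 CPM in LPSCD, 1.19, 0.781, 1.17 and 4.02 CPM in REPOP60 and 5.42, 10.6, 12.8 and 8.89 CPM in LPSREPOP. The 6 neutrophil markers, led by S100a9, summed to 0.389, 1.07, 4.75, 0.705 and 0.532 CPM in CD, 3.26, 2.04 and 1.63 CPM in LPSCD, 0.925, 0.651, 0.65 and 1.21 CPM in REPOP60 and 4.23, 1.55, 9.01 and 1.03 CPM in LPSREPOP, and 2 of 6, S100a8 and S100a9, were called as higher in each comparison, although the groups overlapped in the sum in both. S100a9 and S100a8 also had large suffix terms, being lower in re libraries (-4.37 and -2.15 on the log2 scale), which enter the comparison with CD. Icam1, Pecam1, Ly6a and Ly6c1 are also expressed by leukocytes, and the part of these cells in the rise was not tested. Of the 5 lymphocyte markers Cd3e and Ms4a1 were at 0 in all 16 libraries of the 4 groups.

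Resident and neighbouring cells were read in the same way. Of 8 microglial markers, the 3 complement genes C1qa, C1qb and C1qc rose in each comparison, by 2.03, 2.12 and 1.93 on the log2 scale in LPSCD. The list summed to 39.5 ± 5.42 CPM in CD, 78.6 ± 7.3 in LPSCD, 36.5 ± 2.56 in REPOP60 and 57.2 ± 11.5 in LPSREPOP (SD). Of 6 fibroblast markers none rose in LPSCD and 1, Fmod, rose in LPSREPOP, and their sum went from 9.41 ± 1.78 to 17.9 ± 3.3 CPM and from 10.1 ± 1.68 to 25.5 ± 9.43 CPM. Of 5 glial markers, led by Glul, Gfap rose in LPSCD while Rlbp1 and Slc1a3 fell there, and Rlbp1 fell in LPSREPOP. Their sum was 2388 ± 124 CPM in CD and 2107 ± 433 CPM in LPSCD. No marker of the pigment epithelium (5 genes, led by Rgr) or the lens (3, led by Cryaa) was called, and in these 4 groups lens sums were under 1 CPM except for 12 CPM in CD mouse 4. Of 6 photoreceptor markers, Arr3 fell in both comparisons and Gnat1 in LPSCD. These genes other than the most abundant of each list were named after their values were seen.

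The third question was whether removing microglia or letting them return moves vascular genes without a challenge. In the 6 depletion groups none of the 33 genes was called against CD by edgeR, in 198 tests. Few genes of any kind were called: 0.0532% of all genes after 2 days of PLX5622, 0.0638% after 5, 0.0744% after 7, 0.0567% after 10, 0.078% after 14 and 0.145% after 21. At an unadjusted p under 0.05 there were 7 of 198, 2 higher and 5 lower, or 3.54%, against 4.34% over all genes. DESeq2 and limma on log2 FPKM called 0. With Sele and Selp aside, log2 fold changes ran from -0.70 for Sox17 in DEP2 to 0.84 for Icam2 in DEP5. Vwf, with a mean of 10.4 ± 3.75 CPM (SD, n = 5) in CD, averaged 10.1 ± 1.24 CPM (SD, n = 4) in DEP14, and Cldn5 averaged 5.92 ± 1.77 CPM there (SD, n = 4), with 7.82 ± 1.36 CPM in the controls (SD, n = 5).

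In the 7 repopulation groups none of the 33 was called by edgeR in 231 tests, where 0.0603% of all genes were called 3 days after the diet was changed back, 0.0815% after 5, 0.0815% after 7, 0.0425% after 10, 0.0% after 14, 0.0106% after 21 and 0.0% after 60. At an unadjusted p under 0.05 there were 16, or 6.93%, against 6.40% over all genes, 3 higher and 13 lower. DESeq2 and limma called 0. The smallest p was that of Cdh5 in REPOP7, where the log2 fold change was -0.48 ± 0.15 (SE) with an FDR of 0.826 in edgeR. Next came Cldn5 in REPOP3 at -0.57 ± 0.19 (SE) and Tie1 in REPOP7 at -0.48 ± 0.16 (SE). The lowest FDR was 0.289, for Rgs5 in REPOP21, at a log2 fold change of 0.24 ± 0.085 (SE). These comparisons share the CD mice, so their values are not independent. Log2 fold changes ran from -0.84 for Sox18 in REPOP3 to 0.48 for Erg in REPOP5, again without Sele and Selp.

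**Figure D5:**
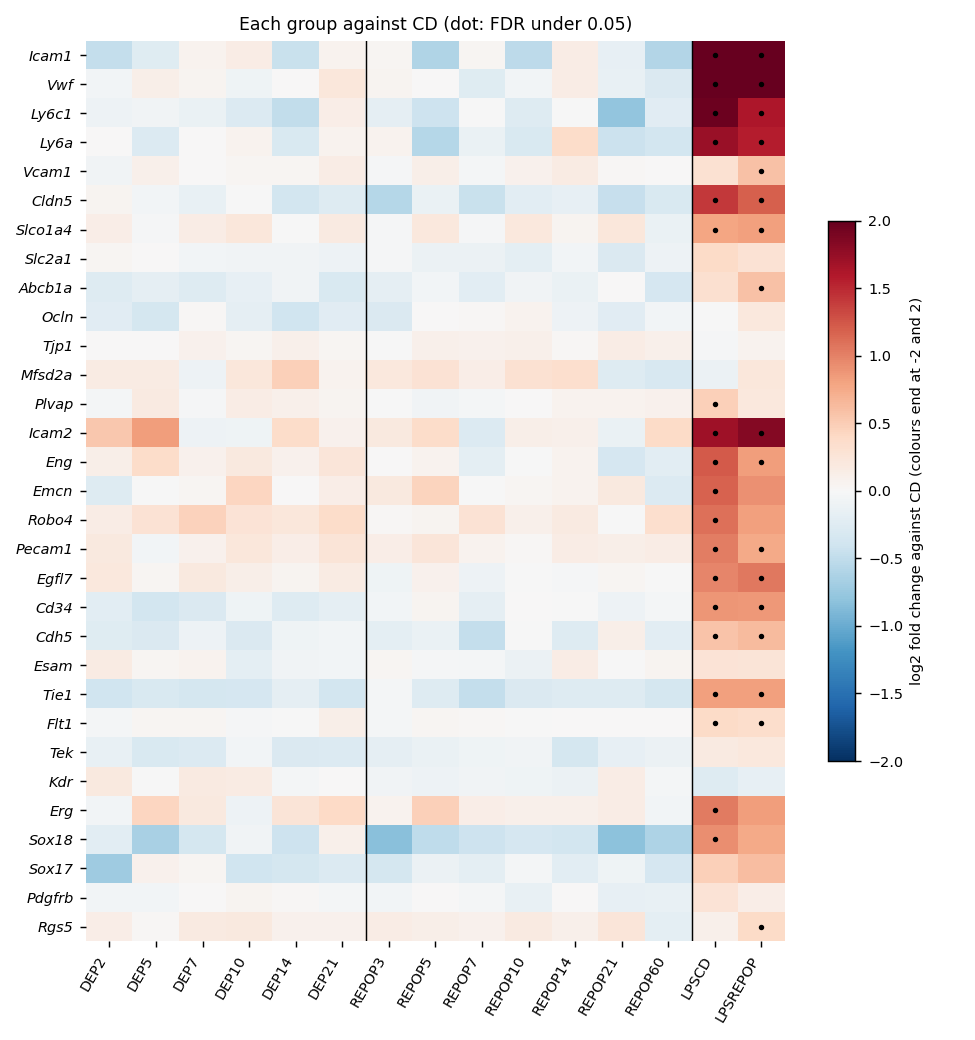
Log2 fold change of 31 genes (rows) in each of the 15 other groups (columns) against CD, with dots where the FDR is under 0.05; colours end at -2 and 2, and black lines part depletion, repopulation and LPS groups. Dots appear in the LPSCD and LPSREPOP columns alone, 19 of them in LPSCD and 17 in LPSREPOP, because Selp is not drawn.

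The 58 unchallenged mice show the spread of the set without LPS. They hold the CD, depletion and repopulation groups and both suffixes, so group and suffix differences are part of that spread. Vwf lay between 6.56 and 16.6 CPM in these mice, with a median of 9.78, and Cldn5 between 3.37 and 9.66 CPM, with a median of 6.85. Both ranges ended below the lowest of the 7 LPS mice. Ly6a lay between 1.37 and 6.35 CPM, with its highest value in mouse 4 of REPOP14, and 5 of 7 LPS mice exceeded it. Flt1 varied least, with a coefficient of variation of 9.2%, and Esam, Tjp1 and Kdr followed at 10.6%, 11.2% and 11.3%. Low genes varied more, such as Icam1 at 53% and Sox18 at 44.2%, and counting error is part of that.

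The title suffix moved some of the same genes, at a share near that of all genes. Between re and RE libraries 6 of the 33 were higher and 10 lower in re at an FDR under 0.05, where 45.5% of all genes were called in either direction. Sox18 (0.92 on the log2 scale), the lipid transporter Mfsd2a (0.50), Sox17 (0.38), Slc2a1 (0.36), Eng (0.30) and Pdgfrb (0.22) were higher. Among the lower genes Sele (-1.98), which had few counts, Emcn (-0.54), Rgs5 (-0.42) and Abcb1a (-0.33) had the largest differences. Vwf (0.23), Icam1 (-0.35), Ly6a (-0.032), Ly6c1 (-0.13) and Cldn5 (0.14) did not pass this test.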

How the data were processed

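RNA of whole retinas was sequenced as 50 base single-end reads, 1 library per mouse. The deposited counts are whole reads for each gene, made by the authors with HISAT2 (mm10) and HTSeq and not normalized, and the deposited FPKM values were made by the authors with StringTie. Versions and the strand setting of counting are not given in the sources used here. Of 50686 genes, 50376 had a GENCODE M21 symbol. Members and lists were chosen with earlier results of these data known. edgeR 4.0.16 (R 4.3.3) fitted all 65 mice in 1 model with group and title suffix as terms, TMM normalization and the quasi-likelihood F test, over the 28211 genes that passed the detection filter. A gene was called at an FDR under 0.05. Standard errors are the log2 fold change divided by the square root of F, and 95% intervals use the normal distribution. The study's methods name an additive batch term without naming the batches, and the suffix was used for it. Mice are separate animals by the labels. No 2 libraries held identical counts. Named genes were all 33 members, at most 3 called genes of smallest p for each vascular list, and the most abundant gene and the defining markers at 0 for each list of other cells. A few of these genes are not reported here. Alternatives were fits without the suffix, of the 2 groups only or of re mice only, RLE normalization, other filters, a replicate block, DESeq2 1.42.0, limma 3.58.1 on log2(FPKM + 0.1) or log2(FPKM + 1), and leaving out each mouse in turn with the dispersions of the full fit. Leaving-out fits of a group with 1 suffix assume the suffix effect of the other groups.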

Additional observations from a re-analysis of the deposited data

Results flagged for a closer look

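In groups of 4 to 10 mice, 138 sets of values (activation genes in all such groups, and barrier genes and other genes that rose under LPS in CD, REPOP60 and LPSREPOP) were searched for a highest or lowest mouse that stood apart from its group beyond the critical value of Dixon's test. There were 8 such mice, or 5.8%, where chance gives about 1 in 20. Under LPS, Vwf stood at 36.1 CPM in mouse 4 of LPSREPOP against a group median of 70.3, and Eng at 23.7 CPM in mouse 2 against 15.9. Without LPS, Vcam1 stood at 8.38 CPM in mouse 1 of DEP2 (group median 13.6), at 16.9 CPM in mouse 2 of DEP10 (12.5) and at 10.3 CPM in mouse 3 of REPOP60 (11.9). Vwf stood at 6.92 CPM in mouse 2 of REPOP14 (12.5), Ly6c1 at 3.70 CPM in mouse 4 of REPOP3 (2.15), and Sele at 0.622 CPM in mouse 4 of REPOP14, where the other mice had a median of 0. No mouse stood apart for more than 1 gene by this measure.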

How the results depend on the processing

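Vwf and Cldn5 rose in both LPS comparisons under all 12 other fits, and no gene called in the fit of all mice changed direction. In LPSCD against CD, 20 genes were called. The stricter rule of the study called 11, and a fit of the 2 groups with the suffix called 2, where only 2 CD mice are re. Other alternatives, the replicate block aside, called 15 to 22, and leaving out 1 mouse gave 13 (without LPSCD mouse 3) to 22. For LPSREPOP against REPOP60, also 20, the stricter rule called 9, other alternatives 16 to 25, and leaving out 1 mouse 15 to 22. Against CD, 18 became 7 by the stricter rule and 9 in the fit of the 2 groups with the suffix. LPSREPOP against LPSCD and the difference of the LPS effects went from 0 to 1 gene, Rgs5, with limma on log2(FPKM + 0.1), on log2(FPKM + 1) and without a filter, and leaving out 1 mouse gave 0 to 2. Repopulation went from 0 to 1, Slc2a1, in 2-group fits with the suffix and without a filter. The cause of these changes was not tested, and the share of all genes called is not given for the alternative fits.

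A replicate block of mouse numbers left 13 genes called in LPSCD (Cdh5, Emcn, Erg, Icam2, Plvap, Sox18 and Tie1 lost), 20 in LPSREPOP against REPOP60 and 12 against CD. In 0 comparisons did every same-numbered pair have a correlation over 0.1 (range -0.50 to 0.58). The pairs ran from -0.052 to 0.027 in LPSCD against CD and from 0.081 to 0.32 in DEP2 against CD. With 3 or 4 pairs in each comparison, this rule cannot exclude that the numbers pair the mice.

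Of 784 log2 fold changes under other fits, 673 kept their direction and side of the threshold, 56 were no longer called, 41 were newly called and 14 changed sign, none of them called. In LPSCD, Ocln came to 0.051 in the 2-group fit with the suffix, 0.049 in re mice only, 0.17 with limma on log2(FPKM + 0.1) with or without a filter and 0.064 on log2(FPKM + 1), and leaving out 1 mouse gave -0.24 to 0.20. Tjp1 came to 0.021 with the replicate block (-0.057 to 0.020 leaving out 1 mouse). Mfsd2a came to 0.17 without the suffix, 0.16 in the 2-group fit without it and 0.0032 with the replicate block (-0.25 to 0.072). Rgs5 came to -0.15 without the suffix and -0.16 in the 2-group fit without it (-0.039 to 0.22). In LPSREPOP against REPOP60, Mfsd2a came to -0.087 with limma on log2(FPKM + 0.1) with or without a filter and -0.048 on log2(FPKM + 1). The difference of the LPS effects has no 2-group fit, and the re mice alone hold no DEP5 mouse. Depth limits the selectins, Icam1 and Icam2 most, which average under 1 CPM in CD.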

Other observations

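Mouse 4 of REPOP14, an RE library that received no LPS, had the highest Ly6a and Ly6c1 values of the 58 unchallenged mice, 6.35 and 4.86 CPM, and the highest Selp and Sele values, 0.373 and 0.622 CPM. Its summed activation genes were 43.4 CPM, the highest of the unchallenged mice, while its Vwf value of 12.9 CPM lay inside their range of 6.56 to 16.6 CPM. Its neutrophil markers summed to 3.36 CPM and its monocyte and macrophage markers to 3.24 CPM, each the highest of the 4 REPOP14 mice, and the part of leukocytes in these values was not tested.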
